A study of Mus musculus with 6 samples.

Results

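Between genes, 3277 regions of the mouse genome carried a 5hmC peak in both libraries of Tet2 KO cells and in neither library of flox cells. They are called KO-only regions here and were chosen by the peak calls themselves. All peaks of the 4 libraries were merged where they shared 1 bp or more, which gave 174070 regions. Of these, 171780 lay on the autosomes, and 103232 of them had their midpoint outside every RefSeq protein-coding gene span. The KO-only regions were 3.17% of those 103232. The mirror set, with a peak in each flox library and none in KO (flox-only), held 2834 regions or 2.75%, and 40603 regions (39.3%) were called in all 4 libraries. A further 1859 autosomal regions were KO-only but had their midpoint inside a gene. The calls and scores of these libraries chose the members, so they are given as a description.

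The study immunoprecipitated DNA with an antibody to 5-hydroxymethylcytosine (5hmC-DIP-seq) to ask where this base lies in AML1-ETO cells with and without Tet2. KO cells had the genotype Tet2-/- after 200 nM 4-OHT, the active form of tamoxifen, for 2 passages (4 days). Flox cells, genotype Tet2fl/fl, had received ethanol. Each group had 2 libraries. Both came from C57BL/6 Tet2fl/fl;CreER bone marrow enriched for Kit+ cells and transduced with a retrovirus that carries AML1-ETO and GFP, and were grown with SCF, IL-3 and IL-6. Both groups were sorted at passage 5 as immature myeloid cells that were GFP+ and CD16/32+ but lacked CD11b and Gr1. Both therefore carried AML1-ETO, the floxed allele and the inducible Cre, while only KO cells had met the drug, so that loss of Tet2 and exposure to active Cre cannot be told apart. The labels do not say whether the libraries of a group were separate cultures, and the spread between them may be technical. Peak lists hold no expression, so the cell type could not be checked against its markers. The 4 lists held 115398 to 120781 autosomal peaks. The read depth behind them was unknown, so the intervals below cover counting error over regions only.

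Tet2 is one of the TET enzymes, which oxidise 5-methylcytosine to 5hmC, an intermediate in the removal of methylation. 5hmC is known from the bodies of active genes and from enhancers, many of which lie between genes. Tet2 is often mutated in myeloid leukaemia, and AML1-ETO is the fusion of the RUNX1 DNA-binding domain with the corepressor ETO.

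Sequence was at hand where KO-only regions reached a RefSeq promoter window, the 250 bases before and 50 bases after an annotated start, or a miRNA hairpin. Of the 3277 regions, 43 (1.31%) touched 45 such windows, 18 of protein-coding and 27 of non-coding genes. For flox-only regions the figure was 45 of 2834 (1.59%), and for regions called in all 4 libraries 933 of 40603 (2.30%). In 10 windows every one of the 300 bases was under a peak in both KO libraries and none under a peak in either flox library. Below are 6 of these 10, read in the direction of transcription on GRCm38.p6, with each CpG, the dinucleotide where most methylation sits, in capitals. The first 5 are the windows of coding genes, 1 per gene, and the last is the start of a non-coding gene under a region far from any coding gene. Kctd8 encodes an auxiliary subunit of GABA-B receptors (chr5:69341660-69341959, minus strand), Pfn3 a testis profilin that binds actin (chr13:55415183-55415482, minus strand) and Med15 a subunit of the Mediator complex (chr16:17722851-17723150, minus strand). Zfp358 encodes a zinc finger protein (chr8:3492888-3493187, plus strand). Nt5dc3 lies on chromosome 10 (chr10:86778755-86779054, plus strand), and the non-coding window on chromosome 11 (chr11:34941678-34941977, minus strand).
Kctd8: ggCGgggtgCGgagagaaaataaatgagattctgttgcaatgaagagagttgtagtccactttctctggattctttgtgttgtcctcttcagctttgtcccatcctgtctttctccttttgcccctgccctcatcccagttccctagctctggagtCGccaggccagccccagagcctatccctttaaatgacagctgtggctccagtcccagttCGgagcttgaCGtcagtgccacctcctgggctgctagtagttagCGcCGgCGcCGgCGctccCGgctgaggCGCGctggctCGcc
Pfn3: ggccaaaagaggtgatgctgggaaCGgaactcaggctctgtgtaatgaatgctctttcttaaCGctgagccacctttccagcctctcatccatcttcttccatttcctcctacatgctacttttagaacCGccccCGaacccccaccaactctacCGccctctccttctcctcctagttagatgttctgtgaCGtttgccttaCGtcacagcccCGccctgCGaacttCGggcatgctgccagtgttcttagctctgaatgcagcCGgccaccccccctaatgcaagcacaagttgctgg
Nt5dc3: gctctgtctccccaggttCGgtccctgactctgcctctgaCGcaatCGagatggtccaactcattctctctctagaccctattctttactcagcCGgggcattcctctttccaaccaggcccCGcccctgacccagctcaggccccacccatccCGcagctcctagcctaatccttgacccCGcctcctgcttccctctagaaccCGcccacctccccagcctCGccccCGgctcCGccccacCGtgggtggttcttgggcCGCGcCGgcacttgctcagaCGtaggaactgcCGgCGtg
Med15: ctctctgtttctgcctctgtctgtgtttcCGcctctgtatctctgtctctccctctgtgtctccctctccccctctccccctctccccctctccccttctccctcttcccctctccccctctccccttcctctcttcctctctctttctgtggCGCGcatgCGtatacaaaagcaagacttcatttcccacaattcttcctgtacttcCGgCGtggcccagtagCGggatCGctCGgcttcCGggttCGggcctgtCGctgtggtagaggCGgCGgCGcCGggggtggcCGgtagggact
Zfp358: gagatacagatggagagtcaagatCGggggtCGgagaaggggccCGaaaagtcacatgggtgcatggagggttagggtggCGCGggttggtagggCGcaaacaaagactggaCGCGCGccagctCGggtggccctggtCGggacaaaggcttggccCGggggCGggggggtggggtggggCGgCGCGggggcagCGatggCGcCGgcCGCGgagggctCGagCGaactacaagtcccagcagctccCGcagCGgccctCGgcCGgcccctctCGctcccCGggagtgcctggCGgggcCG
Non-coding window near Spdl1: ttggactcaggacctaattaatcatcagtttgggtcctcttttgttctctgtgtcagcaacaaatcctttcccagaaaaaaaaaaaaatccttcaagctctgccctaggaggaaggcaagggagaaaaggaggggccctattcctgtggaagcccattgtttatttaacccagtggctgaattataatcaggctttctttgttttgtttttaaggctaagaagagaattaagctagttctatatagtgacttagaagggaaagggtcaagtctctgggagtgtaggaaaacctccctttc

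These windows ranged from CpG-rich to CpG-free. The Zfp358 window held 31 CpGs and the Nt5dc3 window 18, against 17 for Med15, 14 for Kctd8, 11 for Pfn3 and 0 for the non-coding window. The non-coding windows covered in full but not printed held 8, 4 and 5 CpGs. Over all 45 windows the median was 4 CpGs (range 0 to 45) and the median GC content 50%. The 53 windows touched by flox-only regions had a median of 7 CpGs (0 to 50) and 56.3% GC, and all 31396 autosomal windows had 7 CpGs and 53% GC. The core motif of RUNX1, searched as TGTGGT and as ACCACA on the printed strand, which covers both strands, stood in 8 of the 45 windows (17.8%). It stood in 24.5% of windows of flox-only regions, 15.7% of those of regions called in all 4 libraries and 16.7% of all windows. One of the 8 is the Med15 window printed above.

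The region over the printed non-coding window was stronger than those at the 5 coding starts. The score is the authors' own value for a peak within its library, 10 times the negative log10 of its p-value, and the lowest score deposited was 50. Over the printed non-coding window the region scored 126.44 in KO replicate 1 and 126.99 in KO replicate 2. It was the strongest of the non-coding windows covered in full. In those not printed, the lower of both KO scores was 73.27, 70.94 and 59.46, much like the coding starts. At Kctd8 the region scored 89.61 in KO replicate 1 and 75.97 in KO replicate 2. At Pfn3 it scored 65.89 and 87.46, at Nt5dc3 79.92 and 65.80, at Med15 91.73 and 60.93, and at Zfp358 53.35 and 95.57 in KO replicates 1 and 2. The KO library that was higher therefore differed from start to start. The nearest flox peak lay 15659 bp away at Pfn3 and 6355 bp away at Zfp358, but 602 bp away at Med15. Other coding starts were reached in part only. The region at Hoxa13, a homeobox gene of distal limb and posterior patterning, covered 118 bases of the window in KO replicate 1 and 0 in KO replicate 2. At Tnf, the gene of the inflammatory cytokine, the region covered 177 and 102 bases of the window. Ube2d1, a ubiquitin-conjugating enzyme gene, had 239 and 279 bases called, and Gas1, a growth arrest gene, 300 and 172. The lower of both KO scores was near the lowest deposited score at each. It was 54.95 at Hoxa13, 53.4 at Tnf, 51.88 at Ube2d1 and 54.42 at Gas1. A flox peak lay 207 bp away at Tnf and 206 bp away at Gas1, against 18946 bp at Hoxa13 and 13038 bp at Ube2d1.

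Of the 3277 KO-only regions, 1 lay over a miRNA hairpin, that of Mir196a-1 on chromosome 11 between Hoxb13 and Hoxb9. The hairpin (chr11:96265164-96265265, plus strand) was under a peak for all 102 of its bases in KO replicate 1, for 43 in KO replicate 2 and for 0 in both flox libraries. The region (chr11:96265048-96266135) scored 52.89 and 58.46 and was 5739 bp from Hoxb9. No hairpin was touched by a flox-only region, and 16 were touched by regions called in all 4 libraries. Both mature forms from RefSeq are shown with the seed, bases 2 to 8, in capitals. miR-196a is known for targeting Hox messenger RNAs, and Hoxb8 is its best studied target in the mouse.
mmu-miR-196a-5p: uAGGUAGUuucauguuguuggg
mmu-miR-196a-1-3p: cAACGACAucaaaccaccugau

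KO-only regions between genes lay far from genes more often than flox-only regions did. Over 100 kb from the nearest protein-coding gene end there were 1429 of the 3277 KO-only regions, or 43.6% (95% Wilson interval 41.9 to 45.3), and 1066 of the 2834 flox-only regions, or 37.6% (35.8 to 39.4). Regions called in all 4 libraries stood at 35.5% and all regions between genes at 39.4%. The median distance was 73.5 kb for KO-only regions, 51.97 kb for flox-only regions and 50.6 kb for regions called in all 4 libraries. Nearer to genes the order turned. From 1 to 10 kb there were 453 KO-only regions (13.8%) and 511 flox-only regions (18.03%), and within 1 kb 78 of each (2.38% and 2.75%). From 10 to 100 kb there were 1317 KO-only regions (40.2%) and 1179 flox-only regions (41.6%). Regions are not replicates, and no test was made on these shares. When RefSeq genes of every class counted as genes, 13.2% of KO-only and 11.8% of flox-only regions lay over 100 kb away, and the difference of 5.99 points shrank to 1.396. It was 2.83 points without flox replicate 1, 3.23 without flox replicate 2 and 3.95 without KO replicate 2.

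**Figure D1:**
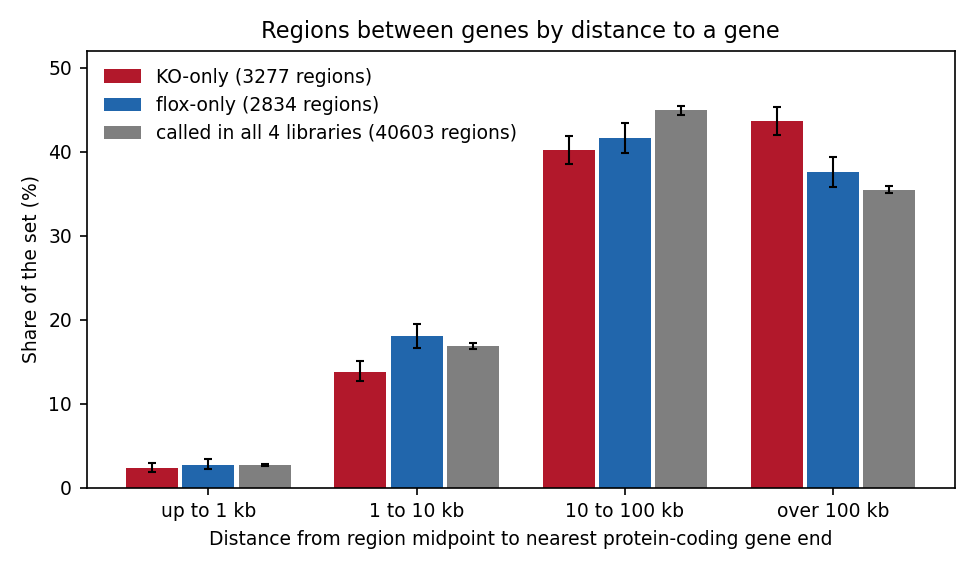
Share of each set of regions between genes (y axis, %) by distance from the region's midpoint to the nearest protein-coding gene end (x axis), for KO-only (red), flox-only (blue) and regions called in all 4 libraries (grey), with 95% Wilson intervals over regions. Among these sets, KO-only regions stand highest over 100 kb (43.6%) and lowest in each nearer class, as from 1 to 10 kb (13.8%).

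Taken bin by bin as a share of all regions at the same distance, KO-only regions became more frequent with distance while flox-only regions did not. Of regions 1 to 10 kb from a gene end, 2.71% were KO-only (2.48 to 2.97) and 3.06% flox-only (2.81 to 3.33). From 20 to 50 kb the shares were 3.00% and 2.81%. From 200 to 500 kb they were 3.61% for KO-only (3.33 to 3.91) and 2.64% for flox-only (2.41 to 2.90). Beyond 1000 kb, 127 of 3162 regions were KO-only (4.02%, 3.39 to 4.76) and 87 flox-only (2.75%, 2.24 to 3.38). The intervals of both sets overlapped in each bin up to 50 kb and from 500 to 1000 kb, and did not meet from 50 to 500 kb. Beyond 1000 kb they missed each other by a narrow margin. The intervals cover counting error over regions, which are not replicates of a genotype. Whether they meet is therefore no test of KO against flox. The share called in all 4 libraries went the other way, with 41.1% at 1 to 10 kb, 35.6% at 200 to 500 kb and 27.0% beyond 1000 kb.

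**Figure D2:**
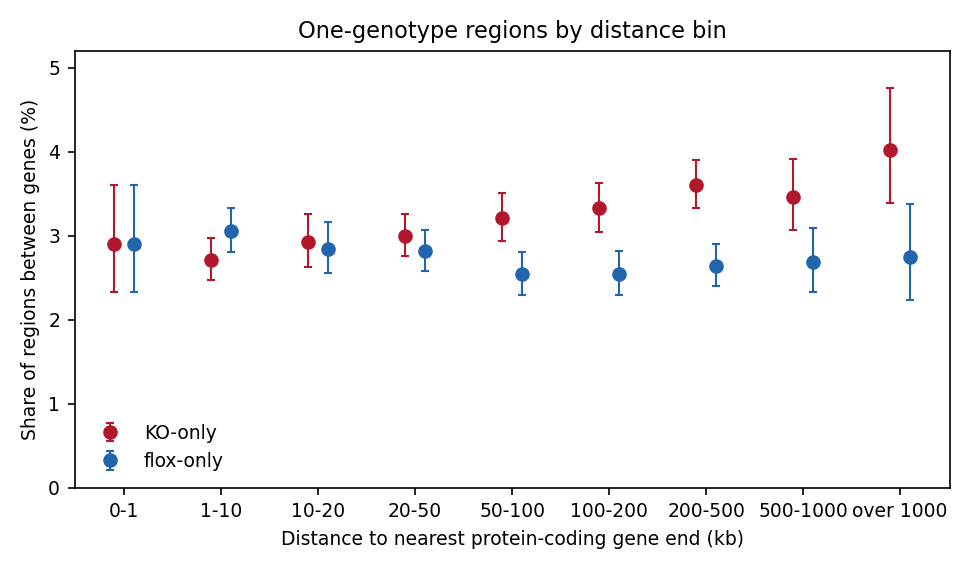
Share of all autosomal regions between genes (y axis, %) that were KO-only (red) or flox-only (blue) in bins of distance to the nearest gene end (x axis, kb), with 95% Wilson intervals. KO-only shares run between 2.71% and 4.02% and are highest in the farthest bin, while flox-only shares stay between 2.54% and 3.06%.

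The library values, which take every peak between genes and not the selected regions alone, showed a smaller difference. Of peaks between genes, 37.83% lay over 100 kb from a gene end in KO replicate 1 and 38.69% in KO replicate 2, against 37.41% in flox replicate 1 and 37.47% in flox replicate 2. Both KO libraries stood above both flox libraries, and KO replicate 2 was farther from them than KO replicate 1. The means were 38.3% ± 0.61 in KO and 37.4% ± 0.036 in flox (SD, n = 2 each), a difference of 0.823 percentage points (two-sided exact permutation p = 0.333, the smallest that 2 against 2 libraries can give). Without KO replicate 2 the difference was 0.394 points, and without KO replicate 1 it was 1.25 points. With the peaks of KO-only and flox-only regions taken out, 0.574 points remained (exact permutation p = 0.333). KO replicate 2 also had the most peaks between genes, 73280, against 69548 in KO replicate 1 and 69895 and 69797 in flox replicates 1 and 2, and the part of peak number in these shares was not tested.

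**Figure D3:**
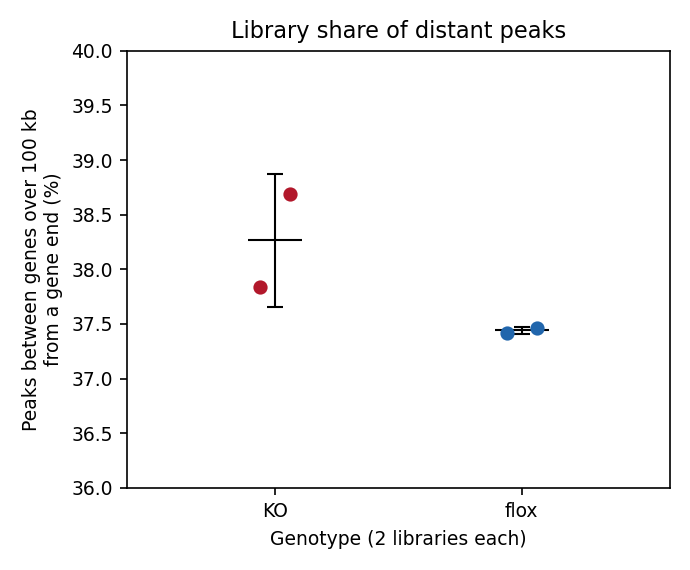
Share of each library's peaks between genes that lay over 100 kb from a gene end (y axis, %, starting at 36), with KO at left and flox at right. Points are libraries, the bar is the mean and the whiskers the SD. KO libraries are at 37.83% and 38.69%, and both flox libraries are near 37.4%.

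KO-only regions had lower scores than regions called in all 4 libraries. Their scores ran from 50.01 to 225.73 in KO replicate 1 (median 68.35) and from 50.01 to 249.25 in KO replicate 2 (median 71.21). Flox-only regions had medians of 68.0 and 70.2 in flox replicates 1 and 2. Regions between genes called in all 4 libraries had medians of 124 and 129 in KO and 124 and 121 in flox. In KO replicate 1, 25.6% of all peaks of the list scored below the median KO-only region, and in KO replicate 2 it was 27.2%. The lower of both KO scores had a median of 60.19 and a maximum of 162.18. It was under 60 in 1617 regions (49.3%) and at least 100 in 114 (3.48%). Membership was tied to the threshold, since peaks of a score of at least 100 alone gave 2026 KO-only regions, of which 5.63% lay on one of the 3277. Scores over 100 kb from genes were much like those elsewhere, with medians of 69.42 and 70.27 in KO replicates 1 and 2. Neither KO library was always the stronger one, with replicate 1 higher in 1547 regions and replicate 2 in 1729.

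**Figure D4:**
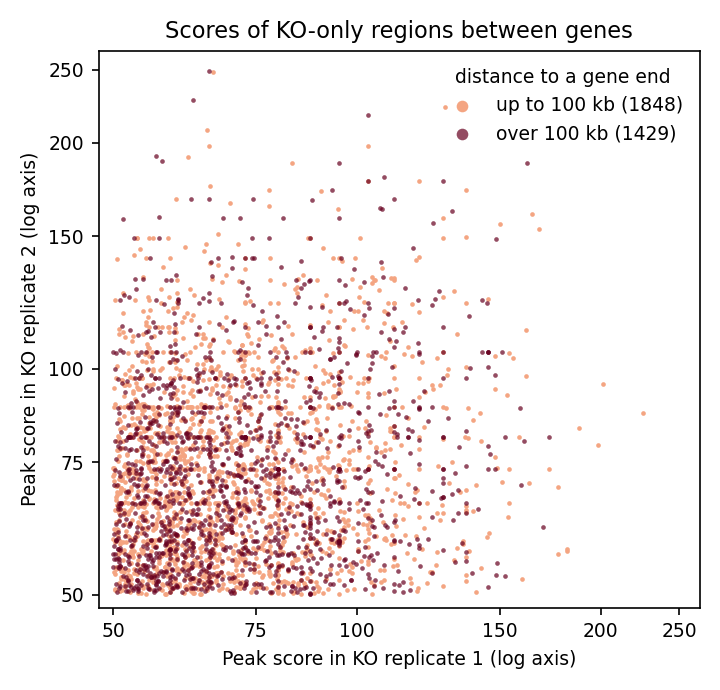
Peak score in KO replicate 1 (x axis) and KO replicate 2 (y axis), both log axes, for the 3277 KO-only regions between genes, in dark red over 100 kb and in light red up to 100 kb from a gene end. In 1617 regions the lower score is under 60, near the lowest deposited score of 50, and 114 regions reach 100 in both libraries.

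The shorter of both KO calls mostly lay inside the longer one. The bases called in both had a median of 623 bp, which was a median of 99.6% of the shorter call, and in 11 regions it was under 50%. Regions were 361 to 2449 bp wide with a median of 903 bp, against 923.5 bp for flox-only regions and 1278 bp for regions called in all 4 libraries. Just outside the rule were 9007 regions between genes with both KO calls and a call in 1 flox library. That flox call had a median score of 77.43, with 1722 under 60 and 2102 at 100 or more. On the side of genes, the KO-only regions inside a gene that lay nearest to its end included Mab21l3, at 26 bp, and Qpct, a glutaminyl cyclase gene, at 102 bp. Around the limit of 100 kb there were 76 members at 90 to 100 kb and 66 at 100 to 110 kb.

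Most KO-only regions had a flox peak within 20 kb, though the same distance for positions between genes in general was not measured. The nearest flox peak was at a median of 5048 bp, within 1 kb for 13.8% of regions, within 5 kb for 49.6% and within 20 kb for 89.8%. The mirror values, from flox-only regions to the nearest KO peak, were 4491 bp, 14.3%, 53.2% and 91.6%. Over 100 kb from genes the median grew to 6349 bp for KO-only and 5956 bp for flox-only regions. The nearest region called in all 4 libraries was 11515 bp from a KO-only region and 10178.5 bp from a flox-only region at the median.

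Regions are ranked below by the lower of both KO scores, and the strongest are those highest by it. The strongest KO-only regions within 1 kb of a gene lay next to a vomeronasal receptor gene and a cytochrome P450 gene. The region 501 bp beyond the end of Vmn1r167 (chromosome 7, 23503715 to 23504567) scored 103.61 and 96.99 in KO replicates 1 and 2. The region 240 bp before Cyp2a22 (chromosome 7, 26939425 to 26939882) scored 96.41 and 107.63. Next came Lysmd2 (chromosome 9, 75624371 to 75625605) with 95.25 and 93.31, and Nefl, the neurofilament light chain gene (chromosome 14, 68083145 to 68084229), with 83.68 and 82.27. All were called in both KO libraries and in neither flox library, as the rule requires. Nefl had a flox peak 342 bp away, while at Vmn1r167 the nearest was 23601 bp off.

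From 1 to 10 kb the named regions lay by Lars2, Myo5a and Batf. Lars2, the mitochondrial leucyl-tRNA synthetase gene, had a region 1040 bp upstream (chromosome 9, 123365315 to 123366459) that scored 131.90 and 126.82 in KO replicates 1 and 2. Myo5a, an organelle-carrying myosin gene, had one 2202 bp downstream (chromosome 9, 75225417 to 75226363) with 145.27 and 123.94. Batf, an AP-1 family factor of immune cells, had one 8104 bp downstream (chromosome 12, 85716916 to 85717467) with 111.16 and 122.37. In KO replicate 1 the Lars2 and Myo5a regions scored above the median of regions called in all 4 libraries, and in KO replicate 2 none of the 3 did. Upstream and downstream places were about equally common, with 216 of 408 KO-only regions within 10 kb and of known strand upstream (52.9%), against 50.4% of flox-only regions and 56.2% of those called in all 4 libraries.

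From 10 to 100 kb the strongest region lay 24.1 kb downstream of Sox21, a transcription factor gene of neural progenitors. It was also the narrowest of all members, at 361 bp (chromosome 14, 118209003 to 118209363), with 164.29 and 160.48 in KO replicates 1 and 2. By Acss3, a mitochondrial acyl-CoA synthetase gene, a region scored 150.21 and 155.93 (chromosome 10, 107148867 to 107149800). By Gabra2, a GABA-A receptor subunit gene, the scores were 136.34 and 173.15, and by Cacna1b, a neuronal calcium channel gene, 128.46 and 223.21. A flox peak was 191 bp from the Cacna1b region and 29629 bp from that of Sox21.

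Over 100 kb from any gene end, the member with the highest lower score stood 566.8 kb upstream of Bod1l, which protects stalled replication forks. That region (chromosome 5, 42410836 to 42411470) scored 162.18 and 187.67 in KO replicates 1 and 2. Regions by Slc8a1, the sodium-calcium exchanger gene (chromosome 17, 81903501 to 81904250), and Igfbp7, a secreted growth factor binding protein gene (chromosome 5, 77526301 to 77528102), scored 148.35 and 148.60, and 130.98 and 162.19. Pax1, a transcription factor gene of the skeleton and thymus, was 135.2 kb from a region with 127.88 and 177.87. The region by Spdl1, a mitotic spindle gene, holds the non-coding start printed above and scored 126.44 and 126.99 (chromosome 11, 34941064 to 34942550). At the far end, a region 2117 kb from Pcdh17 (chromosome 14, 82325954 to 82327143) scored only 50.75 and 78.73. The next farthest lay 2075 kb from Pcdh17, 2060 kb from Celf4, 2008 kb from Pik3c3 and 1964 kb from Cdh20. Of these the Celf4 region was the strongest, with 119.43 and 105.26.

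KO-only regions were spread over many gaps between genes, with a few long gaps holding several. Of 18547 gaps between protein-coding gene spans, 11282 held a region of any kind and 1988 held a KO-only region. In 1379 gaps there was 1, in 318 there were 2, and 291 gaps with 3 or more held 1257 of the members. Of the 1988 gaps, 804 also held a flox-only region, against 1929 of all 11282 gaps with a region. Gap length was not matched in these counts. Gaps over 1 Mb had KO-only regions at 3.64% of their regions (3.42 to 3.88) and flox-only at 2.73% (2.54 to 2.94). Gaps of up to 50 kb had 2.77% (2.53 to 3.04) and 3.12% (2.87 to 3.40). Neighbouring KO-only regions were a median of 448 kb apart, and 88 steps were under 10 kb, against 529 kb and 65 steps for flox-only regions.

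The gap with the most members ran 4.42 Mb from Olfm4, the gene of a secreted glycoprotein of neutrophils and crypts, to Pcdh17, a protocadherin gene. It held 14 KO-only and 7 flox-only regions among 241. Called 5hmC length in this gap was 116766 and 131896 bp in KO replicates 1 and 2, and 112367 and 112903 bp in flox replicates 1 and 2. Both KO libraries were above both flox libraries, with a log2 difference of 0.12 (SE 0.066) after scaling to equal totals. The gap was picked for its number of KO-only regions, so more called length in KO was partly built in. The SE is therefore no test of it. The members lay between 357 kb and 4243 kb from Pcdh17, with scores of 50.75 to 118.83 in KO replicate 1 and 51.18 to 123.54 in KO replicate 2. They stood among 67 peaks in each KO library that belonged to regions called in all 4 libraries.

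**Figure D5:**
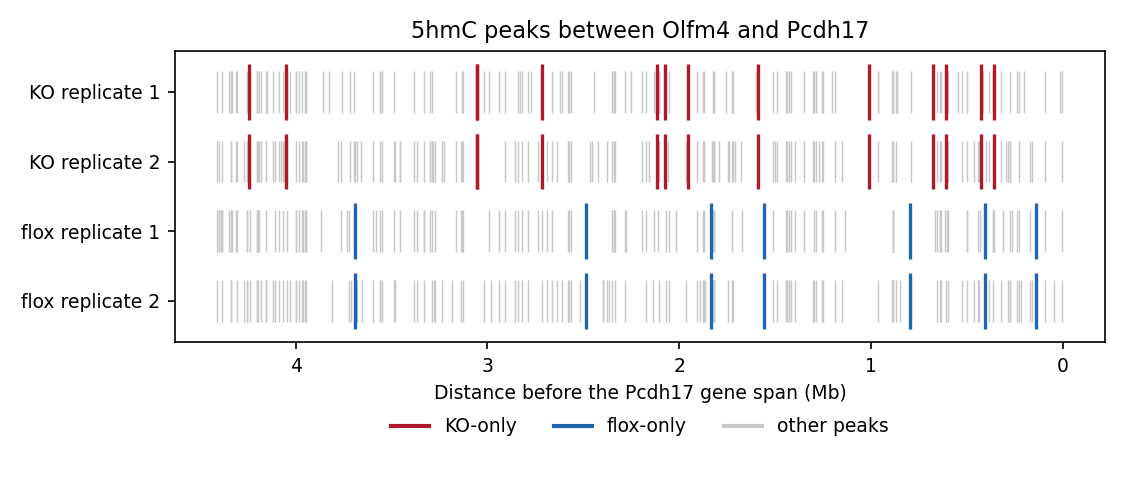
Peaks of each library (rows, KO above flox) in the gap between Olfm4 and Pcdh17, by distance before the Pcdh17 gene span (x axis, Mb), with KO-only regions in red, flox-only regions in blue and all other peaks in grey. The 14 KO-only regions lie 357 to 4243 kb before Pcdh17, among peaks of both genotypes, with a largest step of 996 kb between neighbours.

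A further 5 gaps held 11 or 12 members each. The gap from Celf4 to Pik3c3 held 12 KO-only and 9 flox-only regions. From Dsel to Cntnap5a and from Hace1 to Grik2 there were 11 KO-only and 7 flox-only regions each, and from Klhl29 to Apob 11 and 5. A gap beside Gfra2, a receptor gene of the neurotrophic factor neurturin, tied with 11 and 3. These gaps were also picked for their KO-only regions, so more called length in KO was partly built in. Called length from Klhl29 to Apob was 84135 and 75033 bp in KO replicates 1 and 2. In flox replicates 1 and 2 it was 67030 and 62515 bp, so that both KO libraries were higher. The log2 difference after scaling to equal totals was 0.28 (SE 0.079), which is no test for a gap picked this way. From Dsel to Cntnap5a called length was 98408 and 133737 bp in KO, and 108014 and 107150 bp in flox, and the groups overlapped. Gaps that also held several members were Cdh2 to Dsc3, with 10 KO-only and 3 flox-only regions, Tenm2 to Mat2b, with 9 and 1, and Cdh9 to Cdh10, with 8 and 2. These 3 were picked after their values were seen.

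No gap passed a test of called length over all gaps. With limma on log2(bp + 500) after scaling to equal totals, 0 of 9738 gaps (0%) had an adjusted p under 0.05, with 0.874 as the smallest adjusted p. Without adjustment, 510 of the 9738 gaps had a limma p under 0.05, 214 with more called length in KO and 296 with less. That is close to the share such a threshold passes where nothing differs. The count was 0 in all 12 other settings as well, where the smallest adjusted p ran from 0.206 to 0.915. In gaps with KO-only regions, more called length in KO was partly built in. It was higher in KO in 942 of 1312 gaps with 1 member, 232 of 318 with 2 and 232 of 291 with 3 or more. In gaps with none it was higher in 3339 of 7817. The median log2 difference was 0.14 with 1 member, 0.10 with 2 and 0.092 with 3 or more, against -0.052 with none and -0.0093 over all gaps.

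By nearest gene, KO-only regions belonged to 2199 genes, of which 1580 had a single one and 118 had 4 or more. Cadherins and protocadherins, the cell adhesion genes, were nearest to 85 KO-only and 54 flox-only regions of 2195 (3.87% and 2.46%), and 73 of the 85 were over 100 kb away. Pcdh17 was nearest to 11 KO-only and 7 flox-only regions of 177, and Cdh2, the N-cadherin gene, to 7 and 1 of 106. Cdh8 had 7 and 3 of 184, and Cdh10 had 6 and 0 of 81. Other genes of the list with 6 KO-only regions were less one-sided. Cdh9 had 6 and 6 of 128, Cdh11 6 and 5 of 143, Pcdh10 6 and 3 of 117, and Pcdh7 6 and 2 of 155. The strongest cadherin region was 489 kb from Cdh10 (chromosome 15, 18329104 to 18329814) with scores of 144.69 and 122.37 in KO replicates 1 and 2. A region 426 kb from Pcdh17 scored 118.83 and 123.54, and one 1471 kb from Cdh8 scored 109.34 and 118.34. Among genes outside the lists, Lrrc4c, a synaptic adhesion gene, was nearest to 10 and 4, and Epha7, an ephrin receptor gene, to 7 and 2. The lists of genes were written with earlier results of these data known, and the counts are a description beside 3.17% and 2.75% over all genes. Distance was not matched in this comparison. Among all regions 200 to 500 kb from a gene end the shares were 3.61% and 2.64%. At 500 to 1000 kb they were 3.46% and 2.68%, and beyond 1000 kb 4.02% and 2.75%.

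Olfactory and vomeronasal receptor genes, which sit in clusters, were nearest to 65 KO-only and 47 flox-only regions of 1886 (3.45% and 2.49%), none of the 65 over 100 kb away. Their strongest regions lay by Olfr173 (109.16 and 122.41), Olfr1361 (108.93 and 118.42) and Olfr722 (100.84 and 149.39). Sox, Pou, Fox and Hox factors had 49 and 36 of 1368 (3.58% and 2.63%). In this list a region 114 kb from Foxl1, a forkhead gene, scored 124.00 and 156.30, and one 80.1 kb from Sox13 scored 103.04 and 113.50. Potassium channel genes had 29 and 27 of 941 (3.08% and 2.87%). Their strongest regions lay 921 kb from Kcnv1, with 114.11 and 111.91, and 310 kb and 333 kb from Kcna4.

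Lists of blood cell genes outside the stem cell list each held under 10 KO-only regions. Myeloid differentiation genes were nearest to 6 KO-only and 12 flox-only regions of 269 (2.23% and 4.46%). The strongest lay 34.6 kb upstream of Ccr2, the monocyte chemokine receptor gene (chromosome 9, 124066971 to 124067595), with 119.43 and 118.83 in KO replicates 1 and 2. Cd14, the lipopolysaccharide co-receptor gene, had a region 2474 bp away with 84.29 and 73.50. Ly6c1, a surface antigen of monocytes, had one 21.0 kb away with 61.44 and 70.73. Erythroid and megakaryocyte genes were nearest to 7 KO-only and 0 flox-only regions of only 72 (9.72%, 4.79 to 18.7, and 0%, 0 to 5.07). These 7 belonged to 4 genes. The red cell anion exchanger gene Slc4a1 had a region 8.3 kb away with 78.51 and 73.22. The carbonic anhydrase gene Car2 had one 55.5 kb away with 58.43 and 113.72. Lymphoid genes had 9 and 7 of 352 (2.56% and 1.99%). Regions lay 454.5 kb from Bcl11a (77.48 and 77.96) and 238.7 kb from Bcl11b (64.53 and 78.19), both transcription factor genes.

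Stem and progenitor regulators had 33 KO-only and 33 flox-only regions of 849 (3.89% each). The strongest region lay 139.0 kb from Meis1, a homeobox gene of leukaemic self-renewal, with 137.65 and 117.63. Next came one 7.1 kb from Tcf4, an E protein gene, with 102.06 and 96.99. A region 387.5 kb from Sox4 scored 103.50 and 83.98 and had a flox peak 255 bp away. Cytokine and JAK-STAT genes had 9 and 11 of 278 (3.24% and 3.96%), and 5 of the 9 were nearest to Socs6, a suppressor of cytokine signalling gene. The strongest Socs6 region, 289.0 kb from the gene, scored 86.38 and 105.26. Tumour suppressors of leukaemia had 6 and 9 of 252 (2.38% and 3.57%). A region 113 kb upstream of Cdkn2b, the gene of the cell cycle inhibitor p15, scored 147.90 and 98.07. A region 137.7 kb from Bcl2l11, the gene of the death protein BIM, scored 100.36 and 71.38. One 284.9 kb from Dusp4, a MAP kinase phosphatase gene, scored 76.50 and 65.27.

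TET and DNA methylation genes had 5 KO-only and 2 flox-only regions of 93 (5.38%, 2.32 to 11.97, and 2.15%, 0.592 to 7.51). The strongest lay 103 kb from Mbd2, a methyl-CpG binding protein gene, and scored 145.27 and 78.76. Cxxc4, whose product binds Tet2 protein, and Tet2 itself share a gap with KO-only regions. The Cxxc4 region was 215 kb away with 61.77 and 61.02, and the Tet2 region (chromosome 3, 133630246 to 133631271) was 85.6 kb upstream with 55.35 and 84.56. The KO-only region nearest to Tet3 lay 16.2 kb from it, beside Dguok, with 110.20 and 132.15, and the one nearest to Tet1 was 731 kb away, beside Fam241b, with 61.75 and 73.48.

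By chromosome, KO-only regions outnumbered flox-only regions between genes on 18 of 19 autosomes. Chromosome 19 was the exception, with 68 and 80. Over all autosomes the ratio of KO-only to flox-only regions was 1.16. It fell below 1 without flox replicate 1 (0.815) or flox replicate 2 (0.818). The flox-only set then needs a call in 1 flox library alone, and the KO-only set the lack of a call in 1 alone. The KO-only share ran from 2.77% on chromosome 19 (2.19 to 3.49) to 3.65% on chromosome 18 (3.11 to 4.28), where there were 146 KO-only and 94 flox-only regions. Chromosome 1 had 289 and 213, and chromosome 16 had 134 and 98. The part of KO-only regions over 100 kb from genes ran from 29.7% on chromosome 7 to 58.9% on chromosome 12. Inside a long non-coding RNA gene span lay 419 members (12.8%, 11.7 to 14.0), no larger a share than in the other sets, against 388 flox-only regions (13.7%, 12.5 to 15.0), 14.9% of regions called in all 4 libraries and 14.0% of all regions between genes.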

How the data were processed

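Of 6 samples, the 4 libraries of 5hmC-DIP-seq in KO and flox cells were used. IgG control and input were not analysed here. Tools named in the submitters' processing notes are CASAVA 1.8, Bowtie and MACS 1.4, and the build is GRCm38 (mm10). The sources used here do not give roles and settings, such as the control library of peak calling. Each library had its own deposited peak list with positions in bp. The deposited score is 10 times the negative log10 of the peak's deposited p-value, both the authors' own values for a peak within its library, used here only to describe, rank or filter.

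Peaks were pooled and merged at 1 bp or more of overlap (bedtools 2.31.1 gave the same 174070 regions). A region lay between genes when its midpoint was outside every span of 21896 RefSeq protein-coding genes (GRCm38.p6), and distance ran from the midpoint to the nearest gene end. Symbols and promoter and miRNA sequences were RefSeq's, and no genome was at hand to read the regions' own sequence. Called length per gap between genes was scaled to equal totals and fitted with limma 3.58.1 in R 4.3.3 (trended prior, robust) as log2(bp + 500) for gaps with a mean of at least 500 bp, Benjamini-Hochberg adjusted over all gaps. This scale understates changes of gaps with little called length. The fit was tested on simulated data. Library shares were compared by two-sided exact permutation tests. Python 3.11.15, pandas 2.3.3, numpy 2.4.6, scipy 1.17.1 and matplotlib 3.10.9 were used.

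Named were the 5 members per distance class with the highest lower KO score, the 5 farthest from and 3 nearest to a gene end (with the 3 nearest inside genes), the 5 gaps with the most members, up to 3 members per list for 11 gene lists, and those nearest to Tet1, Tet2 and Tet3. Placeholder symbols (Gm plus digits, or names ending in Rik) were left out, and 1 region that the rule names is not reported here. Genes with promoter or hairpin overlap were an addition. The members and lists were chosen with earlier results of these data known. Alternatives were scores of 100 or more, the top 50000 peaks by score, the lowest scored 10% left out, merging up to 500 bp, a call covering 25% of a region, whole regions outside genes, genes of every class, and each library left out. For gaps, other pseudocounts, filters, scalings and a replicate block were tried.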

Additional observations from a re-analysis of the deposited data

How the results depend on the processing

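Peaks of a score of at least 100 gave 2026 KO-only regions between genes and the 50000 highest scored peaks 1668, of which 5.63% and 3.78% lay on one of the 3277, so these settings mostly picked other regions, with a flox call below the new limit. Their share over 100 kb from genes was 40.1% and 40.2%. With genes of every class as genes it was 13.2%, and the difference from flox-only regions was 1.396 points in place of 5.99. Leaving out a library gave 7666 to 11269 regions, 42.1% to 44.6% over 100 kb, a difference of 2.83 to 6.70 points, and a ratio of KO-only to flox-only regions of 0.815 (without flox replicate 1) or 0.818 (without flox replicate 2) to 1.74, in place of 1.16. Without a flox library both sets grow by construction, since flox-only regions need 1 flox call and KO-only regions the lack of 1. KO-only regions then numbered 7985 (without flox replicate 1) and 7666 (without flox replicate 2), and flox-only regions 9801 and 9370. Why the ratio fell below 1 was not tested. Without KO replicate 1 and KO replicate 2 the ratio was 1.74 and 1.36. The ratio and the difference were settled after seeing the data. The KO minus flox difference of library shares stayed above 0 in all 10 other settings (0.213 to 1.25 points). Gaps past the limma threshold numbered 0 in all 12, among them the replicate block (0 gaps, smallest adjusted p = 0.874, 497 at an unadjusted p under 0.05). KO and flox libraries of the same number did not deviate together in called length across gaps (r = -0.018). With 2 libraries per group this cannot show whether libraries of the same number shared a culture, and the labels do not say. Of 63 named regions, 29 and 26 were still KO-only in the first 2 settings and 53 to 63 in the other 9.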

Other observations

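On the sex chromosomes, which the selection left out, KO-only regions between genes were no more frequent than flox-only ones. The X chromosome held 51 KO-only and 56 flox-only among 1524 regions (3.35%, 2.55 to 4.37, and 3.67%, 2.84 to 4.74), and the Y chromosome 1 and 2 among 50.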
